A study of Homo sapiens with 8 samples.

Results

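The regions described here are the ATAC-seq peaks around 9 transcription factor genes that take part in monocyte and macrophage fate: EGR1, EGR2 and EGR3, NR4A1, NR4A2 and NR4A3, MAF, KLF4 and KLF2. A region belonged to a gene when it overlapped the gene body in the GENCODE annotation of hg38 or the 50 kb on either side of it. By that rule 108 of 161291 regions were assigned, and all of them lay near 8 of the 9 genes, since MAF had none. The assay, which maps open chromatin by where a transposase can insert adapters, was run on U-937, an established human cell line of monocytic character, so every value comes from 1 line. All cultures were harvested after 24 h with DMSO alone (the vehicle, labelled Ctrl), 0.1 µM ATRA, 0.1 µM Corin, or ATRA and Corin together at 0.1 µM each, called the combination here. ATRA, all-trans retinoic acid, activates the retinoic acid receptors, and Corin is a dual inhibitor of the demethylase and deacetylase of the CoREST co-repressor complex. Each of the 4 groups had 2 samples, and the lists used here hold 1 set of peaks per group, so no difference between groups could be set against a spread between replicates and no test was made.

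EGR1, EGR2 and EGR3 are zinc finger factors of the immediate early response, which serum response factor and its partners switch on within minutes through CArG boxes in their promoters, and EGR1 and EGR2 favour the macrophage over the granulocyte fate in myeloid progenitors. NR4A1, NR4A2 and NR4A3 are orphan nuclear receptors that bind DNA without a classical ligand, and are induced by the same kinds of signal, and loss of NR4A1 and NR4A3 together causes myeloid leukaemia in mice. MAF is a bZIP factor of mature macrophages, KLF4 drives monocyte differentiation, and KLF2 keeps monocytes and macrophages quiescent and is induced through a MEF2 site in its promoter. All of them are controlled in part by enhancers that lie away from their start sites.

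The authors' fold column gives the height of a peak relative to the reads around it (its local background), and the highest fold in a region is used as its value in a list. From fold and p a read pileup at the summit and a background were recovered, and 95% exact Poisson intervals on the fold cover counting error in the pileup only. The depth of the libraries is unknown, and pileups given in reads are not scaled for it. The commonest background value was 12.8 reads with DMSO, 9.12 with ATRA, 13.1 with Corin and 13.9 with the combination, and the median fold of a peak was 3.47, 4.80, 3.33 and 3.68 in the same order. Folds in the ATRA list were thus high over the whole genome, by a median of 0.34 on the log2 scale against DMSO over shared regions. Ratios between lists are therefore given after centring on regions of like strength, as centred log2 ratios, and a ratio past 1.5-fold (0.585 on the log2 scale) is called higher or lower. Regions are named by gene and by the distance of the summit from the start of the canonical transcript, with negative values upstream. A region with higher fold may be open in more cells or more open in each cell, which bulk lists cannot tell apart. The lists hold no expression values, so the identity of the line was not checked against the level of marker genes.

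The sequences that follow are the 200 bases around the summits of the regions on which the results turn, read from hg38. The strongest region gained with Corin near KLF2 and the one with the highest ratio there are shown for the AP-1 motif (TGANTCA, searched on both strands), in capitals, which occurs in them more than once.
KLF2 -45.5 kb, chr19:16279271-16279470, plus strand: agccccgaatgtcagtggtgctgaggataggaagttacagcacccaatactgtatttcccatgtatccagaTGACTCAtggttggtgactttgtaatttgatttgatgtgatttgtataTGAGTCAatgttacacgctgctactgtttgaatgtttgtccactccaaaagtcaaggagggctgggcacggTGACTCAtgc
KLF2 +5.8 kb, chr19:16330502-16330701, plus strand: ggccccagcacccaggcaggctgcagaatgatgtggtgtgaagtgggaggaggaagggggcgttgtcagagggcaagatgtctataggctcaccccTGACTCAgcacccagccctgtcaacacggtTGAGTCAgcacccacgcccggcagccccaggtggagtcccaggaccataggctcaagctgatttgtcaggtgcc
Of those with lower fold with Corin, 2 near NR4A3 are shown, with a single retinoic acid receptor motif (AGGTCA) in capitals in one and, where none of the 13 motifs was found, the 10 bases at the summit in the other.
NR4A3 -38.7 kb, chr9:99783040-99783239, plus strand: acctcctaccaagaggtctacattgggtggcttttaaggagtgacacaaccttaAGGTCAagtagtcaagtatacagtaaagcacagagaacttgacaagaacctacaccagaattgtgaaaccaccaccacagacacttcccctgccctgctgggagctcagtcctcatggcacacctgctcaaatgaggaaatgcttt
NR4A3 +29.8 kb, chr9:99851562-99851761, plus strand: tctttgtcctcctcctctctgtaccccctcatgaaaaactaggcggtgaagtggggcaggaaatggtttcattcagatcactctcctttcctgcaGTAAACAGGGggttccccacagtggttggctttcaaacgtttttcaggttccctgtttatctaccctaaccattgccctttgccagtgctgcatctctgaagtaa
Those with higher fold in the ATRA list, or called with ATRA and not with DMSO, are shown with a CArG box at EGR2, a PU.1 motif (GAGGAAGT) and a KLF motif (CCACACCC, on the minus strand) at NR4A1, and an AP-1 and a RUNX motif (TGTGGTT, on the minus strand) at NR4A2 in capitals. At KLF4 the capitals mark the 10 bases at the summit, since none of the motifs was found.
EGR2 -10.1 kb, chr10:62826368-62826567, plus strand: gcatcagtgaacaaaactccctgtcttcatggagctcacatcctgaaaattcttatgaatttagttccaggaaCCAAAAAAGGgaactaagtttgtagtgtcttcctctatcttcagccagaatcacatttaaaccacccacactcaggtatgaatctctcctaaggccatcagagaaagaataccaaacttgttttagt
NR4A1 -5.5 kb, chr12:52045886-52046085, plus strand: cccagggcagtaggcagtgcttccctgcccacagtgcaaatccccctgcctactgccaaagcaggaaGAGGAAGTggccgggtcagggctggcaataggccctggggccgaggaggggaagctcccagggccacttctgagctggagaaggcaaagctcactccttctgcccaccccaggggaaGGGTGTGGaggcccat
NR4A2 -23.5 kb, chr2:156356112-156356311, plus strand: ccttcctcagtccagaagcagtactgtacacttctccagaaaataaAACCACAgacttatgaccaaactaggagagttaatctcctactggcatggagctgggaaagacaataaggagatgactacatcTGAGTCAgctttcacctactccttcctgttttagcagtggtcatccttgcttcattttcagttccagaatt
KLF4 -23.8 kb, chr9:107513505-107513704, plus strand: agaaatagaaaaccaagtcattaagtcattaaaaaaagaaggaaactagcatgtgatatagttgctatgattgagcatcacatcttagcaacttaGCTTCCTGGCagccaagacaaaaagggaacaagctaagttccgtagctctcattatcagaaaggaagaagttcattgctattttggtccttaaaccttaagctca

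For EGR1, EGR2 and KLF2 the 250 bases before the start of the transcript, from RefSeq on GRCh38.p14, are shown for the response elements they carry. Capitals mark CArG boxes (EGR1, EGR2), a MEF2 motif (KLF2) and EGR motifs (GCGNGGGCG, in EGR1 and KLF2).
EGR1 promoter, chr5:138465229-138465478, plus strand: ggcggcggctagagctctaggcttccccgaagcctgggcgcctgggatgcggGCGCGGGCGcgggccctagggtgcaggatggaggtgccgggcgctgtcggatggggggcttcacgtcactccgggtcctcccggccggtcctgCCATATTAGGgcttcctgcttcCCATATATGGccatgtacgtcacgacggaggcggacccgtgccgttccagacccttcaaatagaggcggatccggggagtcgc
EGR2 promoter, chr10:62816367-62816616, minus strand: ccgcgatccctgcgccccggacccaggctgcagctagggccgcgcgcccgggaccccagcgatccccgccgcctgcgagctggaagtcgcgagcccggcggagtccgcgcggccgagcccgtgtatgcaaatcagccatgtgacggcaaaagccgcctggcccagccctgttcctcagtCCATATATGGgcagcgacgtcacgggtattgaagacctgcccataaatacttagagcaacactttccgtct
KLF2 promoter, chr19:16324576-16324825, plus strand: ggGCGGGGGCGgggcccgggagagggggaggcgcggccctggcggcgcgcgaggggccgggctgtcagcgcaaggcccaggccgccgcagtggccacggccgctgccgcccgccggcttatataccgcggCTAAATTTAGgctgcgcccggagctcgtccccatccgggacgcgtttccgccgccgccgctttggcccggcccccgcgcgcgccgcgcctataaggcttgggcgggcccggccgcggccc
In EGR1 the CArG boxes lie 105 to 96 and 83 to 74 bases before the start, and in EGR2 the box lies 71 to 62 bases before it. The MEF2 motif of KLF2 lies 120 to 111 bases before its start. CArG boxes were found in 1.16% of 35116 promoters of the same length, MEF2 motifs in 2.8% and EGR motifs in 8.41%.

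The gene neighbourhoods were mostly open in every list. Of the 108 regions 62 (57.4%) were called in all 4 lists, against 41.1% of all regions. NR4A2 was the extreme case, with the same 7 regions in each list, while EGR1 had 5 of 11, EGR2 5 of 10, EGR3 9 of 17, NR4A1 16 of 27, NR4A3 6 of 12, KLF4 5 of 9 and KLF2 9 of 15 regions in all lists. The number of regions per gene was 7, 6, 7 and 6 for EGR1 in DMSO, ATRA, Corin and the combination, 6, 9, 6 and 6 for EGR2, and 11, 14, 11 and 13 for EGR3. NR4A1 had the most regions, 19, 21, 22 and 22 in the same order. For NR4A3 the numbers were 8, 11, 9 and 7, for KLF4 7, 7, 6 and 8, and for KLF2 11, 11, 11 and 13. The median over the 9 genes was 11 regions in any list, against 14 over 20007 protein-coding genes.

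With ATRA 17 regions were gained, that is called with ATRA and not with DMSO, and 7 were lost. The gains were 18.3% of the 93 regions called in either list, against 18.5% over the genome, and the losses 7.53%, against 20.7%. EGR3 gained 4 regions, EGR2, NR4A1 and NR4A3 gained 3 each, KLF2 gained 2, EGR1 and KLF4 gained 1 each and NR4A2 gained 0. With Corin 12 regions were gained (13.6% of 88, against 13.4%) and 9 lost (10.2%, against 24.6%), and 5 of the gains lay near NR4A1. With the combination 15 were gained (16.5% of 91, against 12.0%) and 9 lost (9.89%, against 27.9%), with 4 gains near NR4A1 and 3 each near EGR3 and KLF2. Losses thus stood below the share over the genome in all 3 comparisons, and gains near it with ATRA and with Corin. With −log10 q of at least 5, gains were 16 with ATRA (17.4%, against 20.1%), 5 with Corin (6.17%, against 8.65%) and 8 with the combination (9.52%, against 10.0%), and losses 7 (7.61%, against 14.1%), 10 (12.3%, against 23.1%) and 10 (11.9%, against 24.0%). At that limit 1 gain with Corin and 1 with the combination lay near NR4A1. These comparisons share the DMSO list.

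**Figure D1:**
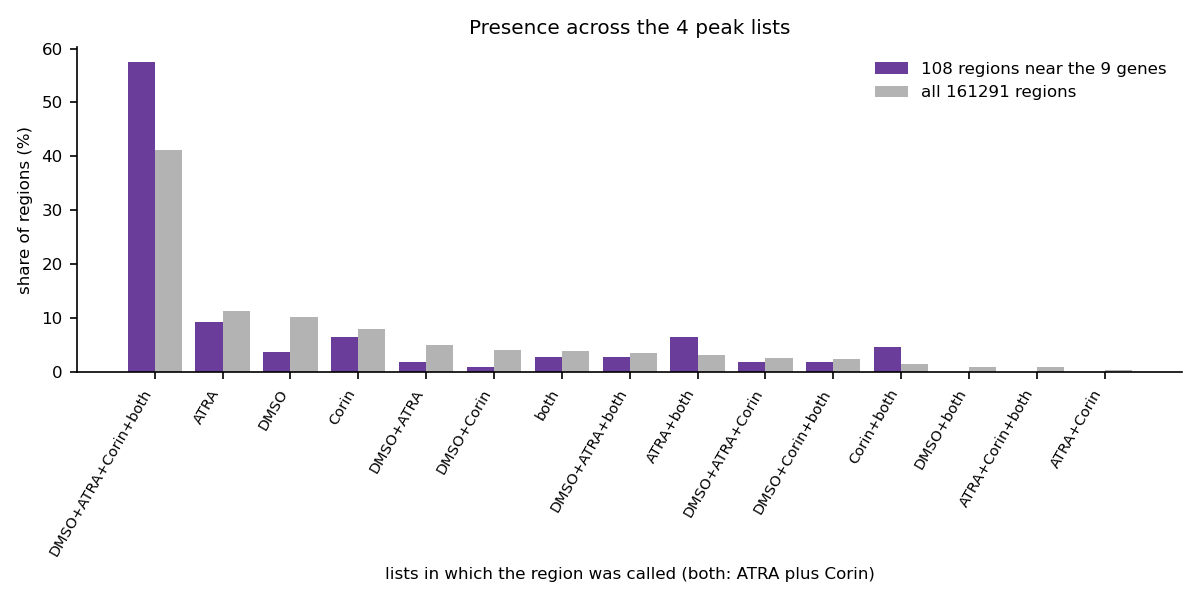
The bars give the share of regions, in percent, with each pattern of presence over the 4 lists, for the 108 regions near the genes (purple) and for all 161291 regions (grey). Presence in all lists took 57.4% of the regions near the genes and 41.1% of all regions, and presence in DMSO alone took 3.7% and 10.2%.

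Among regions not called in every list, 10 were called with ATRA alone (9.26%, against 11.4% of all regions), 7 with Corin alone (6.48%, against 8.05%), 3 with the combination alone (2.78%, against 3.93%) and 4 with DMSO alone (3.7%, against 10.2%). A further 7 regions (6.48%, against 3.2% of all regions) were called in both lists with ATRA and in neither list without it, near EGR2, EGR3, NR4A1, NR4A3, KLF4 and KLF2. Another 5 (4.63%, against 1.5%) were called in both lists with Corin and in neither list without it, and lay near NR4A1, EGR3 and KLF2. Among them NR4A1 -47.8 kb, NR4A1 -42.2 kb and NR4A1 +13.0 kb were weak, with −log10 p between 3.447 and 6.631. They ranked at percentile 12.43 or below of each of these lists by p. KLF2 -45.5 kb ranked at percentile 71.6 with Corin and 33.7 with the combination. Regions called in a single list reached a fold of 6.13 with ATRA (NR4A3 +39.7 kb), 4.63 with DMSO (KLF2 -15.1 kb), 3.75 with the combination (KLF4 -5.6 kb) and 3.47 with Corin (EGR2 +46.6 kb).

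Over the regions called in both lists of a comparison, the fold was higher with ATRA at 12 of 69 (17.4%, against 15.6% over the genome) and lower at 4 (5.8%, against 9.7%). NR4A1 held 4 of the higher regions, EGR3 3 and KLF4 2, while 3 of the 4 lower regions lay near NR4A3. With Corin 3 of 67 were higher (4.48%, against 7.71%) and 5 lower (7.46%, against 8.64%), and again 3 of the lower ones lay near NR4A3. With the combination 3 of 67 were higher (4.48%, against 9.13%) and 3 lower (4.48%, against 11.0%). The median centred log2 ratio over the members' regions was 0.10 with ATRA, -0.02 with Corin and -0.02 with the combination, where it is 0 over all regions by construction. By gene the medians with ATRA ran from -0.43 for NR4A3 (8 regions) and -0.09 for NR4A2 (7) to 0.27 for EGR1 (5) and 0.30 for KLF4 (6).

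The calls with ATRA depended on the measure. With the pileup in place of the fold, 5 of 69 regions were higher with ATRA (7.25%, against 18.5% over the genome) and 11 lower (15.9%, against 14.8%). NR4A1 -5.5 kb (0.94), EGR2 -14.6 kb (0.88), KLF4 -23.8 kb (0.82) and EGR3 +50.3 kb (0.68) were higher by both measures, and KLF2 +42.1 kb (0.70) by pileup alone. The other 8 regions higher by fold were under 1.5-fold by pileup: the NR4A1 start was at -0.44, NR4A1 -47.2 kb and +30.2 kb at 0.04 and 0.14, KLF4 +8.5 kb at 0.09, KLF2 +3.7 kb at 0.34, EGR3 -2.0 kb and -34.2 kb at 0.35 and 0.36, and NR4A2 -23.5 kb at 0.56. Of the 4 regions lower by fold with ATRA, NR4A3 -38.7 kb (-0.68) and +29.8 kb (-0.90) were lower by pileup too. With Corin and with the combination the regions called lower by fold, at KLF2, NR4A1 and NR4A3, were lower by pileup too.

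**Figure D2:**
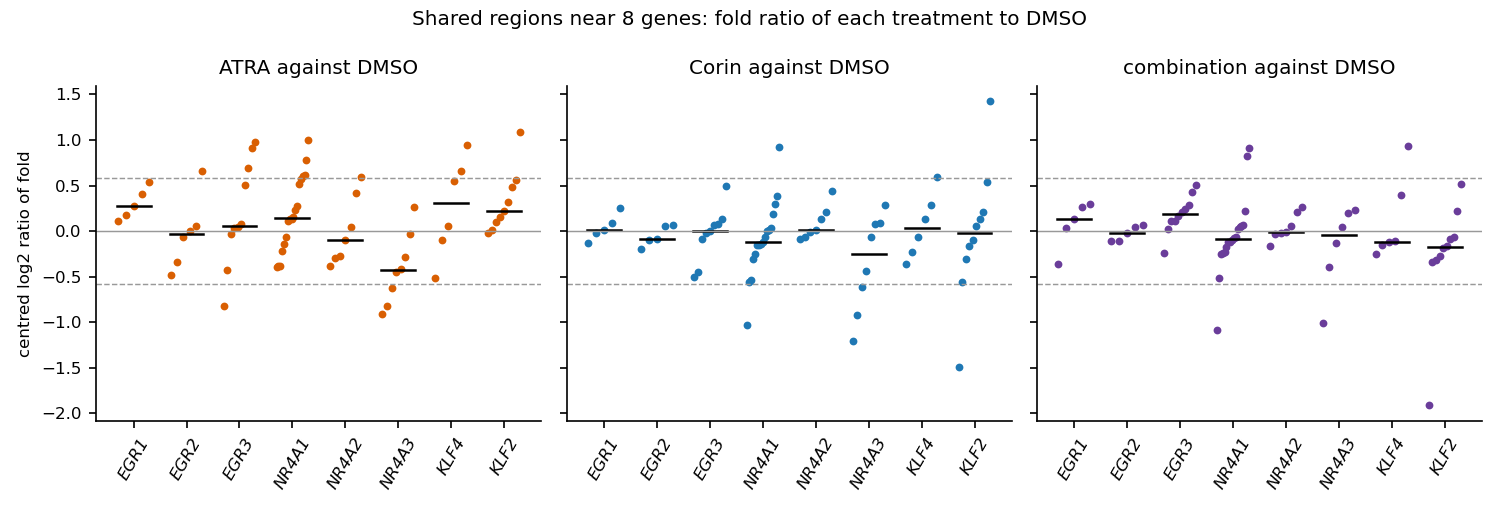
Each point is a region called in both lists, placed by its centred log2 ratio of fold to DMSO, for ATRA, Corin and the combination, by gene. Black bars are medians over the regions of a gene, dashed lines mark 1.5-fold, and the lowest point, at -1.91, is KLF2 +52.0 kb with the combination.

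The position of the summit rarely moved. Between DMSO and ATRA the strongest summit moved by over 150 bp in 5 of 69 shared regions (7.25%, against 6.66% over the genome), between DMSO and Corin in 5 of 67 (7.46%, against 8.96%), and between DMSO and the combination in 2 of 67 (2.99%, against 8.11%). At the EGR2 start the ATRA summit lay 321 bp from that of DMSO, and at the upstream start of NR4A2 it lay 733 bp away. At NR4A1 -73.7 kb, in an intron of ACVR1B, the strongest summit lay 615 bp from that of DMSO with ATRA, 632 bp with the combination and 13 bp with Corin. A merged region can hold several peaks, so the strongest summit may belong to a different peak in each list.

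The start regions of all 8 genes were open under every condition. At EGR1 -0.4 kb, which covers the CArG boxes printed above, the fold was 6.17 with DMSO, 11.2 with ATRA, 5.19 with Corin and 6.17 with the combination, and the ATRA value lay above the counting intervals of the others. The pileup there was 2218, 2317, 1841 and 2762 reads, which did not follow the fold, and the local background was lowest with ATRA (207 reads, against 359, 354 and 446). At EGR2 -0.4 kb the fold was 12.0, 15.2, 11.0 and 13.3 in the same order. Once centred, the EGR2 start did not differ with ATRA (0.00 on the log2 scale, 95% counting interval -0.11 to 0.11). The EGR3 start had the lowest fold of the 8 genes, at 3.62, 3.26, 4.36 and 4.22, and was higher with Corin by 0.50 (0.36 to 0.64) and lower with ATRA by a centred ratio of -0.43 (-0.60 to -0.25), both short of 1.5-fold. Its pileup ratio with ATRA was -0.97, past 1.5-fold, at 429 reads against 757 with DMSO.

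Among the nuclear receptors, the NR4A1 start stood out in the ATRA list, with a fold of 16.3 against 7.26 with DMSO, 5.86 with Corin and 7.40 with the combination. The centred ratio of ATRA to DMSO was 0.78 (0.66 to 0.90). The pileup in reads, not scaled for depth, was instead lowest with ATRA, at 1034 reads, against 1291, 1480 and 1655. The centred pileup ratio of ATRA to DMSO was -0.44. The background was 62.3 reads with ATRA and 177, 252 and 223 in the others. Fold and unscaled pileup thus placed ATRA at opposite ends at the NR4A1 start, while the other lists did not stand in reversed order. At NR4A2 +0.7 kb the fold was 6.58, 7.39, 5.29 and 6.43, and at the start of its longer gene model, NR4A2 -9.9 kb, it was 9.73, 11.8, 9.26 and 9.89. At NR4A3 -0.1 kb it was 5.92, 6.57, 6.47 and 6.82. These NR4A2 and NR4A3 start regions differed by less than 1.5-fold from DMSO in every treatment.

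The start regions of the Krüppel-like genes differed by less than 1.5-fold between the lists once their folds were centred. KLF4 -0.2 kb had a fold of 11.4, 15.1, 9.41 and 10.8 with DMSO, ATRA, Corin and the combination, and KLF2 -0.1 kb, which covers the MEF2 motif, 8.48, 11.8, 7.23 and 7.72. Centred on regions of like strength, the ratios with ATRA were 0.06 and 0.10, with Corin -0.23 and -0.09, and with the combination -0.15 and -0.18. Pileups, in reads not scaled for depth, ran from 997 with ATRA to 2344 with the combination at KLF2 and from 688 to 1268 at KLF4. The centred pileup ratios of ATRA to DMSO were -0.63 at KLF2 and -0.62 at KLF4, past 1.5-fold.

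**Figure D3:**
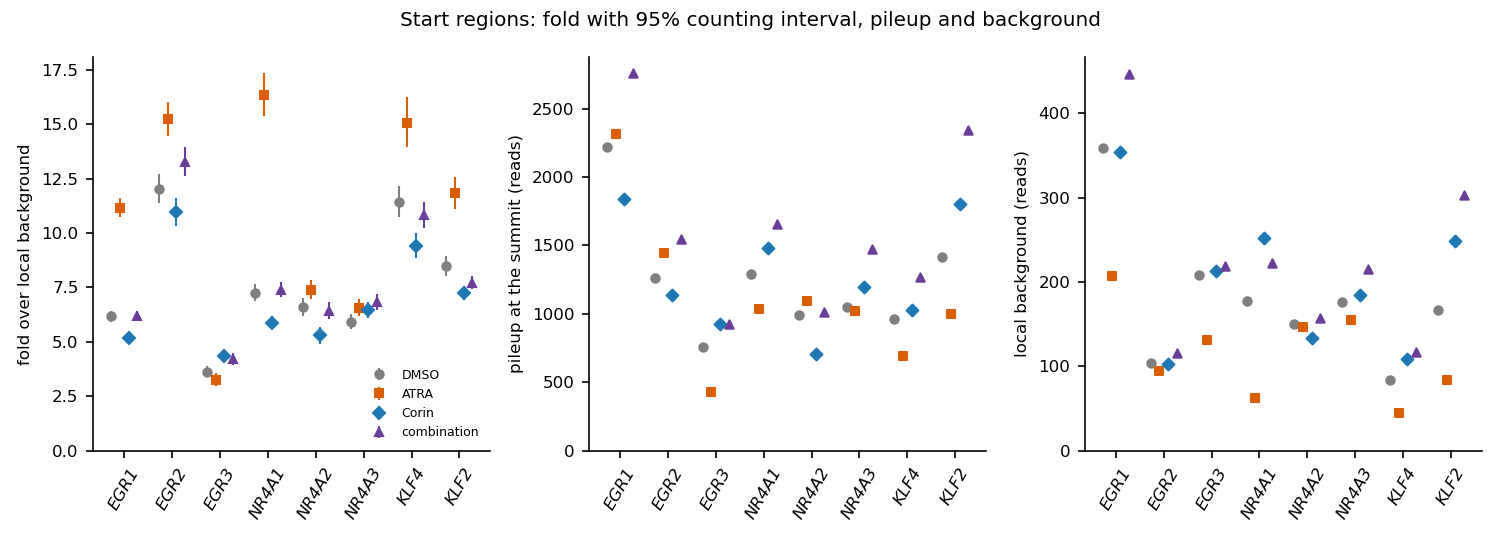
For the start region of each gene the panels give the fold over local background with its 95% counting interval, the pileup at the summit in reads and the local background in reads, by list. The fold of ATRA is the highest of the 4 lists at 6 of 8 genes, EGR3 and NR4A3 being the exceptions, while its background is the lowest at 7 of 8, NR4A2 being the exception.

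Away from the start sites, the EGR1 neighbourhood (ENSG00000120738, chr5:138465479-138469303, plus strand) held 3 intergenic regions with a higher fold than the start. EGR1 +26.7 kb was the strongest region of the gene in each list, with a fold of 19.6 with DMSO, 27.6 with ATRA, 20.6 with Corin and 25.0 with the combination. EGR1 -15.3 kb had 13.1, 22.8, 12.9 and 16.6, and its centred ratio with ATRA was 0.54 (0.35 to 0.72), the largest of the gene. EGR1 +38.5 kb had 9.10, 13.4, 7.82 and 10.4, and its ratio with Corin, -0.13 (-0.47 to 0.20), was the lowest of the gene. EGR1 -6.0 kb had the lowest ratio with the combination, -0.37 (-0.63 to -0.10), with folds of 4.27, 6.0, 4.29 and 3.17. Gained and lost regions were weak: EGR1 +48.8 kb, in an intron of ETF1, was called with ATRA alone at a fold of 4.35, EGR1 -20.4 kb, at the promoter of REEP2, with Corin alone at 2.04, EGR1 +21.4 kb with the combination alone at 2.14, and EGR1 +17.3 kb with DMSO alone at 2.87. All 5 shared regions of EGR1 were within 1.5-fold of DMSO by fold in every treatment, while by pileup 1 was lower with ATRA.

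EGR2 (ENSG00000122877, chr10:62811996-62819167, minus strand) had its strongest region 44.8 kb upstream of the start, EGR2 -44.8 kb, at folds of 15.1, 17.4, 12.8 and 15.6. The largest gain was EGR2 -10.1 kb, in an intron of a non-coding gene, which is printed above with its CArG box at -27 bases from the summit. It was absent from DMSO and Corin, and had a fold of 7.22 (5.67 to 9.06) with ATRA and 5.16 (4.08 to 6.44) with the combination, between which the centred ratio was 0.10 (-0.39 to 0.58). Further upstream, EGR2 -14.6 kb had a fold of 2.61 with DMSO and 5.14 with ATRA, a centred ratio of 0.66 (0.01 to 1.32), and was called in neither list with Corin. EGR2 +46.6 kb, with an AP-1 motif 9 bases from its summit, was called with Corin alone at 3.47. The promoter of the neighbouring gene ADO, EGR2 +11.6 kb, had the lowest ratio with ATRA, -0.48 (-0.65 to -0.31).

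EGR3 (ENSG00000179388, minus strand) lies between BIN3 and PEBP4 and had the most regions of the EGR genes. Its strongest region, EGR3 -22.4 kb, in an intron of PEBP4, ranked at percentile 99.1 or above of each list by p and had folds of 15.1 with DMSO, 18.7 with ATRA, 16.3 with Corin and 17.8 with the combination. In introns of BIN3, EGR3 +28.3 kb and EGR3 +25.8 kb were called in both lists with ATRA and in neither of the others, at 4.63 and 4.51 with ATRA and 2.02 and 3.73 with the combination. EGR3 +4.7 kb, in an exon of EGR3 itself, was called with ATRA alone at 5.81. EGR3 +7.7 kb, with an AP-1 motif at -26 bases from its summit, was called with Corin at 3.76 and with the combination at 1.75. EGR3 +34.7 kb, in an intron of BIN3 and with AP-1 motifs at -90 and 85 bases from its summit, was called with DMSO alone at 2.80.

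Of the shared regions of EGR3, 3 were higher with ATRA and 0 with Corin. EGR3 +50.3 kb had folds of 4.83, 12.2, 3.02 and 6.26 with DMSO, ATRA, Corin and the combination, and its centred ratio was 0.91 (0.60 to 1.24) with ATRA and -0.45 (-0.90 to -0.01) with Corin. EGR3 -42.7 kb had 6.19, 12.1, 3.71 and 9.09, with ratios of 0.51 (0.22 to 0.81), -0.50 (-0.88 to -0.13) and, for the combination, 0.51 (0.22 to 0.80). At both regions the 4 lists stood in the same order, with ATRA highest and Corin lowest. EGR3 -34.2 kb was higher with ATRA, at 6.85 against 2.69, and was missing with Corin. EGR3 -2.0 kb had 13.7 with ATRA against 6.32, a ratio of 0.70 (0.59 to 0.80), and the promoter of BIN3, EGR3 +24.3 kb, was lower with ATRA at 6.07 against 7.82, a ratio of -0.82 (-0.99 to -0.66).

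NR4A1 (ENSG00000123358, chr12:52022832-52059507, plus strand) has several start sites, and its strongest region in 3 lists, NR4A1 -18.4 kb, lies in an intron between them, at folds of 13.5 with DMSO, 23.2 with ATRA, 10.6 with Corin and 14.7 with the combination. In the Corin list NR4A1 +18.2 kb, the promoter of ATG101, was stronger, at 12.2. The clearest difference lay at NR4A1 -5.5 kb, in an intron and printed above with its PU.1 motif at -33 bases from the summit. Its folds were 5.01 with DMSO, 13.7 with ATRA, 4.85 with Corin and 8.69 with the combination, so that both lists with ATRA stood above both lists without it. The centred ratio was 1.0 (0.79 to 1.22) with ATRA, 0.19 (-0.06 to 0.44) with Corin and 0.82 (0.61 to 1.03) with the combination, and the pileup gave 257, 562, 298 and 663 reads in the same order.

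Other regions of NR4A1 differed with Corin in either direction. NR4A1 -73.7 kb had folds of 2.55, 3.19, 4.23 and 4.55 with DMSO, ATRA, Corin and the combination, with ratios of 0.93 (0.61 to 1.25) for Corin and 0.91 (0.60 to 1.23) for the combination. The latter sets side by side summits that lay 632 bp apart in this region. NR4A1 -58.2 kb, also in an intron of ACVR1B, had 10.5, 10.5, 6.86 and 4.95, with ratios of -0.53 (-0.92 to -0.15) and -1.09 (-1.51 to -0.68). These 2 regions lie near the same gene and stood in opposite order over the lists. NR4A1 +30.2 kb, with a PU.1 motif at its summit, was lowest with Corin, at 2.00 against 4.50 for DMSO, a ratio of -1.03 (-1.55 to -0.53), and highest with ATRA, at 9.23. NR4A1 -14.4 kb, at an inner promoter, had the lowest ratio with ATRA, -0.39 (-0.59 to -0.19).

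The gained and lost regions of NR4A1 were weaker. NR4A1 -74.8 kb was called with ATRA alone at a fold of 3.54 and NR4A1 +11.3 kb with Corin alone at 2.21. NR4A1 -12.8 kb was called in both lists with ATRA, at folds of 5.0 with ATRA and 2.64 with the combination. Its pileup went the other way, at 100 and 177 reads, a centred pileup ratio of the combination to ATRA of 1.02. NR4A1 -47.8 kb, NR4A1 -42.2 kb (at the promoter of TAMALIN) and NR4A1 +13.0 kb were called in both lists with Corin, at folds between 1.55 and 2.33. NR4A1 -45.5 kb, at the promoter of TAMALIN, was called with DMSO and ATRA, at 2.5 and 3.57, and in neither list with Corin. NR4A1 -47.2 kb was missing with Corin and NR4A1 +9.0 kb with ATRA, from DMSO folds of 3.52 and 2.12.

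NR4A2 (ENSG00000153234, chr2:156324437-156342348, minus strand) had no gained or lost region. Its intergenic region NR4A2 -23.5 kb, printed above, had a fold of 7.81 with DMSO, 15.5 with ATRA, 6.89 with Corin and 7.97 with the combination. ATRA alone stood apart, with a centred ratio of 0.60 (0.26 to 0.94), and with the combination the ratio was -0.02 (-0.40 to 0.37). In the ATRA list this was the strongest region of the gene, while in the other lists NR4A2 -9.9 kb was. The lowest ratio with ATRA was at NR4A2 -2.1 kb, -0.39 (-0.51 to -0.27). The extremes with Corin were 0.44 (-0.07 to 0.96) at NR4A2 -54.4 kb and -0.09 at the start, and with the combination 0.27 (0.08 to 0.45) at NR4A2 -3.0 kb and -0.16 (-0.63 to 0.30) at NR4A2 +23.3 kb.

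NR4A3 (ENSG00000119508, chr9:99821855-99866891, plus strand) had the most regions of lower fold with ATRA and with Corin against DMSO, 3 in each. NR4A3 -38.7 kb, in an intron of a non-coding gene and holding the retinoic acid receptor motif printed above, had a fold of 7.68 for DMSO, 6.82 for ATRA and 2.83 for Corin and was not called with the combination. NR4A3 +29.8 kb, in an intron of NR4A3, ran 7.75, 5.93 and 3.47 and was likewise not called with the combination. For these regions the centred ratios were -1.20 (-1.77 to -0.66) and -0.92 (-1.45 to -0.42) with Corin, and -0.63 (-1.09 to -0.17) and -0.82 (-1.31 to -0.35) with ATRA. Both regions were thus lower than DMSO with Corin and with ATRA once centred. At NR4A3 +29.8 kb the fold intervals of ATRA (4.54 to 7.62) and Corin (2.57 to 4.57) overlapped.

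NR4A3 +46.3 kb, in an intron of the non-coding gene STX17-DT, had folds of 10.6 with DMSO, 16.1 with ATRA, 6.30 with Corin and 5.42 with the combination. The 2 lists with Corin stood below the 2 without it, with centred ratios of -0.61 (-1.0 to -0.23) for Corin and -1.01 (-1.41 to -0.61) for the combination. The adjacent region NR4A3 +47.1 kb had 6.17, 4.40, 5.02 and 6.96, lowest with ATRA, at a ratio of -0.91 (-1.38 to -0.45). NR4A3 +64.1 kb, in an exon of STX17-DT, was the strongest gained region of all 9 genes with ATRA. It was absent from DMSO and Corin and had a fold of 15.9 (13.6 to 18.6) with ATRA and 4.69 (3.66 to 5.91) with the combination. The strongest region of the gene in each list was the promoter of STX17, NR4A3 +85.0 kb, at folds between 14.3 and 17.5, and the gain with Corin, NR4A3 +30.2 kb, was weak at 2.48.

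KLF4 (ENSG00000136826, chr9:107484852-107490482, minus strand) had an intergenic region, KLF4 -23.8 kb, with a fold of 5.15 with DMSO, 13.3 with ATRA, 5.31 with Corin and 9.84 with the combination. Both lists with ATRA stood above both without it, at centred ratios of 0.95 (0.52 to 1.38) and 0.93 (0.51 to 1.37), against 0.28 (-0.21 to 0.78) for Corin. KLF4 +9.3 kb, downstream of the gene, was highest with Corin, at 9.64 against 7.0 with DMSO, 6.75 for ATRA and 6.49 for the combination, and its ratio with Corin was 0.60 (0.34 to 0.87). The adjacent KLF4 +8.5 kb was highest with ATRA, at 6.94 against 3.39, and was not called with Corin.

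The strongest region of KLF4 in each list was KLF4 +24.0 kb, at the promoter of LINC01509, with folds of 18.8, 20.5, 17.8 and 16.6. KLF4 +49.6 kb was called with DMSO and Corin, at 5.8 and 5.45, and in neither list with ATRA. KLF4 +10.8 kb was called in both lists with ATRA, at 3.51 and 2.66, and KLF4 -5.6 kb with the combination alone, at 3.75. KLF4 +5.4 kb had the lowest ratio with Corin, -0.36 (-0.68 to -0.04).

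KLF2 (ENSG00000127528, chr19:16324826-16328685, plus strand) held both the largest higher and the largest lower ratio with Corin among the regions of the 9 genes. At KLF2 +5.8 kb, an intergenic region with AP-1 motifs at -4 and 26 bases from its summit, the fold was 2.47 (2.10 to 2.87) with DMSO, 5.64 (5.21 to 6.11) with Corin and 2.75 (2.46 to 3.06) with the combination, and the region was not called with ATRA. The centred ratio was 1.43 (1.17 to 1.69) for Corin and 0.22 (-0.06 to 0.50) for the combination. KLF2 -45.5 kb, with AP-1 motifs at -29, 19 and 90 bases from its summit, was absent from DMSO and ATRA and had 6.62 (5.92 to 7.37) with Corin and 2.70 (2.30 to 3.14) with the combination. Both regions were thus strongest with Corin given alone and weaker when ATRA was added.

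KLF2 +52.0 kb, in an intron of EPS15L1, had a fold of 8.26 (7.17 to 9.46) with DMSO, 15.9 (13.7 to 18.4) with ATRA, 2.49 (1.90 to 3.21) with Corin and 2.09 (1.49 to 2.85) with the combination. The lists with Corin stood below the lists without it, and the intervals did not overlap. The centred ratio was 0.56 (0.26 to 0.85) with ATRA, -1.49 (-1.94 to -1.06) with Corin and -1.91 (-2.45 to -1.41) with the combination, the lowest of all shared regions of the 9 genes. In pileup the region went from 206 reads with DMSO and 175 with ATRA to 58 with Corin and 38 with the combination. With the combination its −log10 p was 5.09, at percentile 5.0 of that list, and the summit lay 207 bp from that of DMSO.

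Among the remaining regions of KLF2, KLF2 +3.7 kb, in an exon near the end of the gene, had folds of 3.11, 8.87, 2.01 and 2.35 with DMSO, ATRA, Corin and the combination. Its ratio with ATRA, 1.09 (0.92 to 1.25), was the highest of the 9 genes, and by pileup it was 0.34. KLF2 +42.1 kb had 7.19, 13.5, 7.67 and 10.6, with ratios of 0.49 (0.27 to 0.71) for ATRA and 0.52 (0.30 to 0.75) for the combination. The strongest regions of the gene were KLF2 -31.1 kb, at the promoter of the divergent transcript KLF2-DT, in DMSO and Corin at 15.4 and 13.5, and KLF2 -41.1 kb in ATRA and the combination at 18.5 and 13.7. KLF2 -15.1 kb was called with DMSO alone at 4.63, and KLF2 +27.5 kb with ATRA alone at 4.25.

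**Figure D4:**
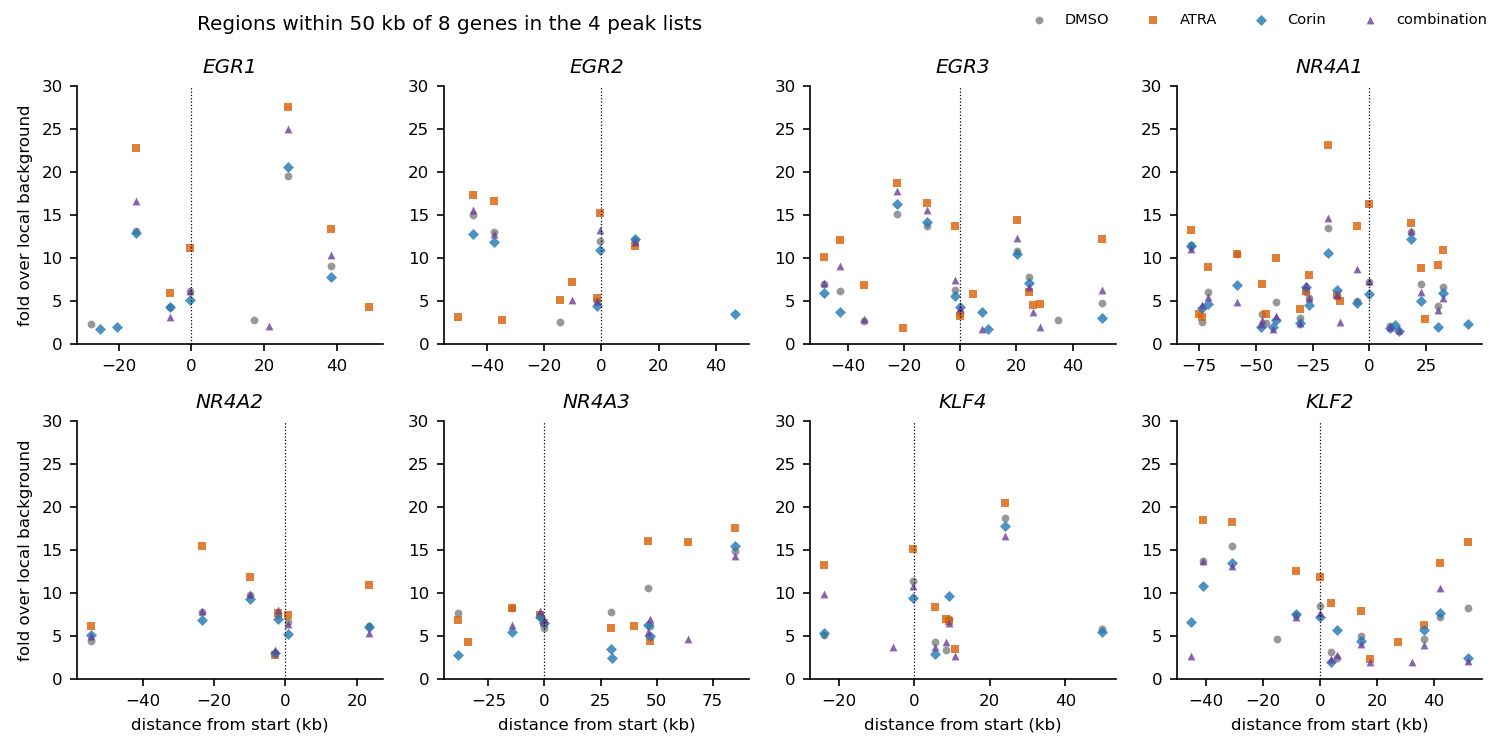
Each panel shows 1 gene, with the distance of a region's summit from the start of the canonical transcript in kb on the x axis and its fold over local background on the y axis, by list. Most regions hold 4 points, 1 per list, and the highest is EGR1 +26.7 kb at 27.6 with ATRA.

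**Figure D5:**
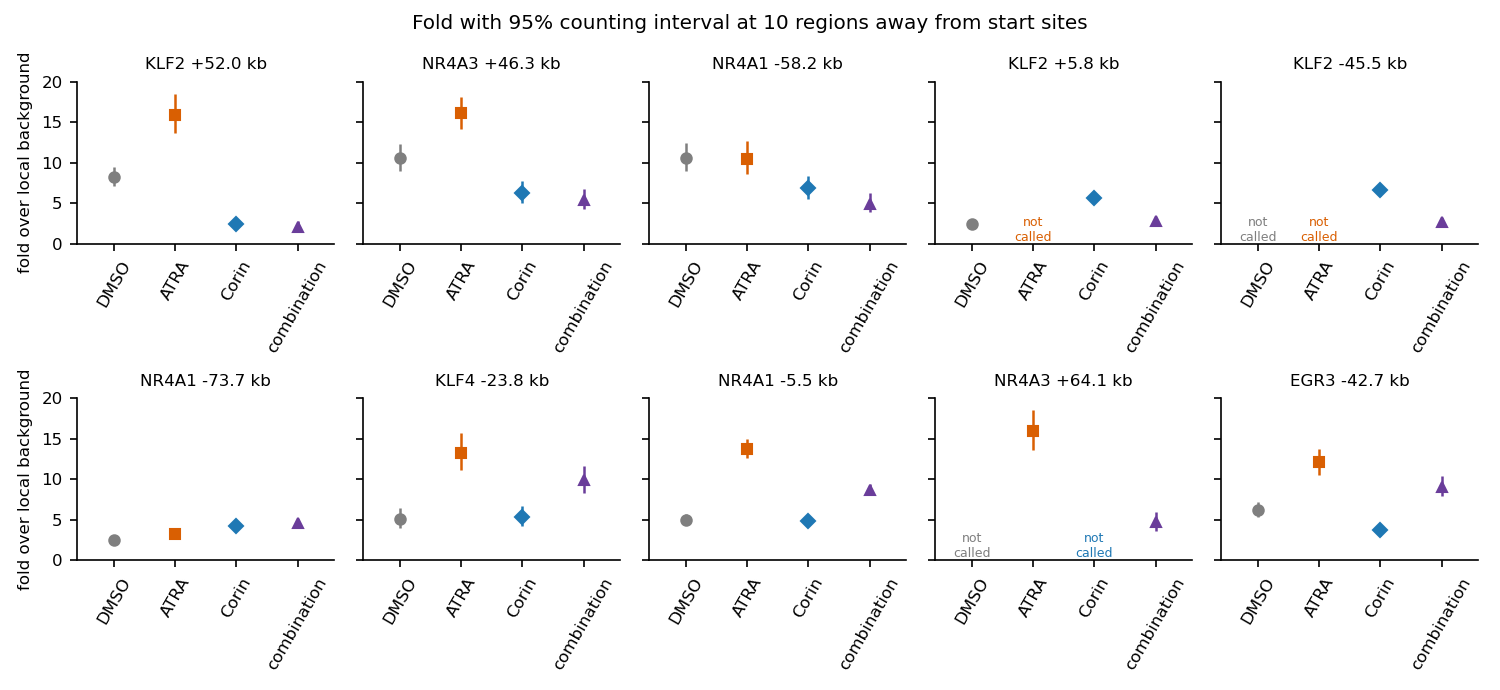
The fold over local background, with its 95% counting interval, is plotted by list for 10 regions away from start sites, chosen after their values were seen. KLF2 +52.0 kb and NR4A3 +46.3 kb are lower in both lists with Corin, KLF4 -23.8 kb and NR4A1 -5.5 kb are higher in both lists with ATRA, and "not called" marks a region missing from a list.

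MAF (ENSG00000178573, chr16:79585843-79600737, minus strand) had 0 regions in any of the 4 lists. Of the 20007 protein-coding genes 869 (4.34%) had no region within 50 kb. No region was called from position 79451660 to position 80027065 of chromosome 16, a gap of 575 kb. The nearest region on one side lay 134 kb from the gene and was called with DMSO at a fold of 4.71 and with ATRA at 21.8. On the other side the nearest lay 426 kb away and was called with DMSO at 6.96 and with Corin at 11.3. An empty stretch in these lists is not in itself a measurement of closed chromatin, and the values at MAF are not analysed here further.

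When Corin was added to ATRA, 10 regions of the 9 genes were gained over ATRA alone (10.4% of 96, against 11.5% over the genome) and 14 lost (14.6%, against 25.4%), and with −log10 q of at least 5 the gains were 4 (4.49%, against 6.59%). NR4A3 lost 4 regions, among them NR4A3 -38.7 kb, NR4A3 +29.8 kb and NR4A3 +39.7 kb, and EGR2 and NR4A1 lost 3 each. NR4A1 gained 4, and 1 with that limit on q. Of 72 shared regions 6 were higher (8.33%, against 9.28%) and 11 lower (15.3%, against 15.7%) in the combination, and by pileup 10 were higher (13.9%, against 14.9%) and 6 lower (8.33%, against 16.4%). The lowest was KLF2 +52.0 kb, at -2.36 (-2.90 to -1.84), followed by KLF2 +3.7 kb at -1.42 (-1.57 to -1.27), NR4A3 +64.1 kb at -1.27 (-1.70 to -0.85) and NR4A3 +46.3 kb at -1.16 (-1.54 to -0.79). By pileup KLF2 +3.7 kb stood at -0.13, with 726 reads in the combination and 740 with ATRA over backgrounds of 308 and 82.6 reads, while KLF2 +52.0 kb (-1.90) and NR4A3 +46.3 kb (-1.51) were lower by pileup too. The highest was NR4A3 +47.1 kb at 1.24 (0.78 to 1.70), next to the latter, and NR4A1 -73.7 kb followed at 0.99 (0.68 to 1.3). At KLF4 -23.8 kb, EGR2 -10.1 kb and EGR3 -42.7 kb the ratio was -0.09 (-0.44 to 0.26), 0.10 (-0.39 to 0.58) and -0.02 (-0.30 to 0.25), so that a difference between ATRA with and without Corin was not detectable there. The NR4A1 start was lower in the combination by fold, -0.81 (-0.92 to -0.69), and higher by pileup, 0.48.

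When ATRA was added to Corin, 13 regions were gained over Corin alone (14.1% of 92, against 16.1%) and 10 lost (10.9%, against 21.1%). EGR3 and KLF4 gained 3 each, and NR4A3 lost 3. Of 69 shared regions 5 were higher (7.25%, against 9.37%) and 6 lower (8.7%, against 9.1%). EGR3 -42.7 kb was the highest, at 1.14 (0.79 to 1.5), followed by NR4A1 +30.2 kb at 1.0 (0.48 to 1.54), EGR3 +50.3 kb at 0.93 (0.49 to 1.38), KLF4 -23.8 kb at 0.75 (0.34 to 1.18) and NR4A1 -5.5 kb at 0.71 (0.51 to 0.91). Those 5 were also above DMSO with ATRA alone by 0.51 or more. The lower regions were led by KLF2 -45.5 kb, at -1.42 (-1.70 to -1.14), and KLF2 +5.8 kb, at -1.16 (-1.36 to -0.96). EGR3 +7.7 kb stood at -1.10 (-1.53 to -0.68) and KLF4 +9.3 kb at -0.71 (-0.98 to -0.45).

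What the regions share in sequence was searched in the 200 bases around the strongest summit of each. The AP-1 motif was found in 13 of 108 regions (12.0%, against 12.2% of all regions) and the C/EBP motif (TTGCNNAA) in 17 (15.7%, against 14.5%). The regions with the AP-1 motif were not all gained or higher with Corin. Among them EGR3 +34.7 kb was called with DMSO alone and NR4A1 -74.8 kb with ATRA alone. At KLF2 +14.3 kb, also with the motif, the ratio with Corin was 0.05 (-0.34 to 0.45). CArG boxes were found in 5 regions (4.63%, against 1.18%), namely the starts of EGR1, EGR2 and EGR3 and the regions EGR2 -10.1 kb and EGR3 -2.0 kb. At the EGR1 start 3 boxes lay at -35, 3 and 19 bases from the summit. EGR motifs were found in 6 regions (5.56%, against 1.34%), among them the starts of NR4A1 and KLF4, and MEF2 motifs in 5 (4.63%, against 1.97%), among them the start of KLF2, at -3 bases from its summit. The single retinoic acid receptor motif was found in 7 (6.48%, against 13.0%), and the direct repeat of that motif with a spacer of 5 bases, the CRE (TGACGTCA) and the NR4A binding motif (AAAGGTCA) in 0, where 0.0391%, 0.298% and 0.937% of all regions hold them. PU.1 motifs were found in 6 (5.56%, against 6.73%), RUNX motifs in 5 (4.63%, against 8.27%) and KLF motifs in 2 (1.85%, against 2.58%). A match is a match of letters and was not set against binding of a factor.

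For the genes that act with these factors, 20 were counted in the same way, among them the EGR corepressors NAB1 and NAB2, the small MAF genes, other KLF genes, and the SRF, ELK, CREB and MEF2 genes that control immediate early genes. They had 369 regions. With ATRA 43 of 303 were gained (14.2%, against 18.5% over the genome) and 67 lost (22.1%, against 20.7%). With Corin 58 of 318 were gained (18.2%, against 13.4%) and 58 lost (18.2%, against 24.6%). With the combination 36 of 296 were gained (12.2%, against 12.0%) and 68 lost (23.0%, against 27.9%). The losses of the 9 genes stood at 7.53%, 10.2% and 9.89% in the same 3 comparisons. Against DMSO, most regions were gained by MEF2D (9) and SRF (8), both with Corin, and most were lost by NAB1 (9 with ATRA and 8 with Corin) and KLF13 (8 with ATRA). These genes were named as the largest counts of the 20. Over all lists their windows held 30 regions for MEF2D, 25 for SRF, 23 for NAB1 and 33 for KLF13.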

How the data were processed

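ATAC-seq peak lists of U-937 cells, 1 per group of 2 samples, were analysed on hg38, the build in the submitters' processing notes, which name cutadapt, Bowtie2, SAMtools, Picard and MACS2 without versions or roles. The settings are not given in the sources used here. The lists are labelled ppr, naive overlap and filt, which does not state that a peak had to be called in both samples of a group. From the narrowPeak layout and the values, the authors' fold in the deposited lists is a ratio of summit to local background, their p is deposited as −log10 p, and their q as a score, −log10 q. Summits are deposited as an offset in bp. No other per-sample columns were present. The depth of the samples is unknown, and whether the 2 samples of a group came from separate cultures is not given in the sources used here.

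Overlapping peaks of the 4 lists were merged into union regions with Python 3.11.15, numpy 2.4.6, pandas 2.3.3 and scipy 1.17.1, and assigned to genes of GENCODE release 44. A shared region had peaks from both lists, with 1 bp of overlap sufficing. Ratios of the highest fold were centred on the median of shared regions in 20 classes of strength. Pileups were solved from p and fold and were whole, within 0.05, for 99.96% or more of the peaks in each list. Intervals (95%, exact) cover counting error only and take the background as known. The pileup solution, the merging and the centred ratio with its 1.5-fold call were checked on simulated data. Gained and lost calls were not simulated. The simulated noise was smaller than the spread of ratios here, so the share of false calls in these data was not tested.

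Named regions were, for each gene, the start region, the highest fold in each list, the strongest gained and lost regions by −log10 p, and the largest ratios in each direction. Regions named beyond that were chosen after their values were seen. The genes, lists and motifs were chosen with earlier results of these data known. Alternatives were a stricter q limit, merging within 150 bp, overlap of 50%, lists of equal length, a window of 10 kb, 2 other centrings, another peak per region, a 2-fold threshold and, added after the data were seen, pileup in place of fold. Sequences are printed for a choice of regions, and some items are not reported here.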

Additional observations from a re-analysis of the deposited data

How the results depend on the processing

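No paired analysis was possible because each group had 1 pooled list, and for the same reason no replicate could be left out. All counts refer to the 9 genes, and pairs are named as treatment over reference. With a window of 10 kb, which holds fewer regions by construction, the lists held 34 (DMSO), 37 (ATRA), 38 (Corin) and 39 (combination) regions. Gains over DMSO were then 5 (ATRA), 5 (Corin) and 6 (combination), and 5 and 5 for the combination over ATRA and over Corin, and losses were 2, 1, 1, 3 and 4 in the same order. Higher fold ratios numbered 5 for ATRA over DMSO, 1 for the combination over DMSO and 1 over Corin, and lower ratios 2, 2, 1, 3 and 3 in the same order of pairs as the gains. With −log10 q of at least 5, gains were 5 for Corin over DMSO, 8 for the combination over DMSO and 4 over ATRA, and with an overlap of 50% the last was 16. With a 2-fold threshold, higher and lower ratios were 2 and 0 for ATRA over DMSO, 1 and 3 for Corin, 1 and 5 for the combination over ATRA, and 2 and 3 over Corin, and higher ratios of the combination over DMSO were 0. Quantile normalization gave 2 lower ratios for ATRA, and 1 median for all strengths gave 8 lower for Corin over DMSO and 17 for the combination over ATRA. With pileup in place of fold, higher and lower ratios were 5 and 11 for ATRA over DMSO and 10 and 6 for the combination over ATRA, higher ratios for Corin were 5 and lower ones for the combination over DMSO 6. The NR4A1 start reversed under pileup, to -0.44 for ATRA over DMSO (from 0.78) and 0.48 for the combination over ATRA (from -0.81). Lists of equal length, merging within 150 bp and the fold of the peak with the highest −log10 p moved none of these counts by over 1.5 times. The causes were not tested, and depth, being unknown, sets a limit on weak regions that could not be measured.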
